A study of Mus musculus with 30 samples.

Results

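The response of the liver to a fructose diet was set against the response of the duodenum in C57BL/6 mice. For each gene, the log2 fold change of fructose over control in duodenum was subtracted from the one in liver, so a positive difference means a more positive change in liver and a negative one a more positive change in duodenum. Of the 30 libraries in the series, 20 carry this comparison: 5 livers on fructose, 5 livers on the corn starch control diet, 5 duodena on fructose and 5 duodena on the control diet. The other 10, from livers and duodena of mice on dextrose, entered only the estimates of scaling and spread. The test itself was not limited to chosen genes. Of the 47069 genes in the deposited count table, 27724 had a count in any library, and 15268 passed the filter on low counts and were tested. The gene lists and the rule for naming genes, which includes a fixed set, were chosen with earlier results of these data known. Strain, tissue and diet are the only descriptions the labels give, with no age, sex, dose or feeding time, and nothing in them states that each library is a different animal, so the p-values given here measure only how far these samples spread, which may be technical.

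Dietary fructose enters the enterocyte through the transporter SLC2A5 at the brush border, is phosphorylated by ketohexokinase and is then split, and triokinase returns a fragment to the triose phosphates. The small intestine can turn part of the fructose into glucose, lactate and other products, and what passes into the portal vein is taken up by the liver, which uses the carbon for glucose, glycogen and fatty acids. Both organs contain ChREBP, encoded by Mlxipl, a transcription factor that sugar phosphates activate and that binds E-box elements near genes of glycolysis and lipogenesis.

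Total counts per library ran from 14530137 to 16232401 in fructose livers, 16912475 to 19285480 in control livers, 16519312 to 18699454 in fructose duodena and 15656136 to 16916063 in control duodena. The mean of 16 hepatocyte markers was 12.02 to 12.22 log2(CPM + 1) in fructose livers and 11.5 to 12.52 in control livers, against 1 to 1.38 in fructose duodena and 0.83 to 3.77 in control duodena, and 16 enterocyte markers were high in duodenum and low in liver in the same way. Several libraries stood apart. Duodenum control 5 held the value of 3.77 for hepatocyte markers, where the other duodenum controls reached at most 1.21. The mean of 15 pancreatic acinar markers was 3.79 in duodenum control 3 and 2.89 in duodenum fructose 3, with medians of 0.9 and 0.91 in those groups. The same list reached 5.32 in liver control 5, 4.45 in liver control 2 and 3.26 in liver fructose 5, and 26 cell cycle genes had a mean of 3.98 in liver control 2 against at most 1.76 in the other livers of that group. Of the 16 hepatocyte markers 5 fell on fructose in duodenum, where 221 of all 15268 tested genes fell and duodenum control 5 stood apart. The tissue difference of the marker Alb was 6.51, and -0.09 without that library. For the other markers the part of that library was not tested. Several results that rest on such a library are given with and without it.

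The fructose effect differed between liver and duodenum for a small share of genes. By edgeR's quasi-likelihood test with Benjamini-Hochberg adjustment over all tested genes, the difference between the tissue effects passed 0.05 for 165 genes, which is 1.08% of those tested. It was positive for 63 of them (0.413%) and negative for 102 (0.668%), a split that moved to 90 and 96 with upper-quartile scaling. Within one tissue, 148 genes changed in liver (0.969%), 92 up and 56 down, and 535 changed in duodenum (3.5%), 314 up and 221 down. A gene that passes in 1 tissue and not in the other is not thereby shown to differ, which only the 165 calls test. In both tissues 14 genes passed, which is 9.46% of the liver calls and 2.62% of the duodenum calls, and 12 of the 14 had the same sign. At an unadjusted p under 0.05 the difference counted 2026 genes. Its median over all tested genes was -0.02, with a median SE of 0.3, so for a typical gene the test could resolve only differences well above that size.

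Among the 165 genes, the larger group had moved in duodenum. In liver 14 had risen and 16 had fallen without passing in duodenum, whereas 71 had risen and 33 had fallen in duodenum without passing in liver. For 28 genes neither tissue passed by itself, 2 passed in both with opposite signs and 1 passed in both with the same sign. The absolute difference had a median of 1.23 on the log2 scale and was at least 0.51. Most of these genes are active in both organs: 150 had a mean of at least 1 CPM in both, 8 only in duodenum and 7 only in liver. Across the 10834 genes at that level in both tissues, the liver and duodenum effects had a Pearson r of 0.11 and a Spearman rho of 0.11, a description across genes that share libraries and scaling.

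**Figure D1:**
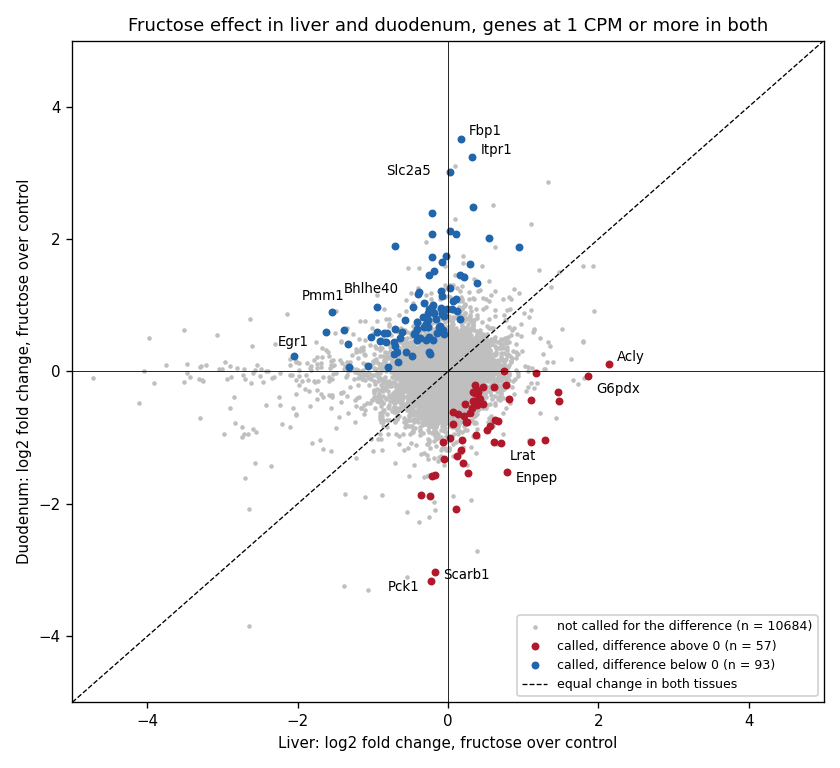
Log2 fold change of fructose over control in liver (horizontal) and in duodenum (vertical), 1 point a gene, for the 10834 genes at a mean of at least 1 CPM in both tissues; 12 genes, 3 of them called, lie outside the axes. Red points are called with a positive difference (57) and blue points with a negative one (93); the blue points rise along the vertical axis near 0 on the liver axis, and few coloured points lie near the dashed line of equal change.

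The count of 165 varied with the libraries. It was lowest, 102, without liver fructose 2, 106 without duodenum fructose 3, and highest, 222, without liver control 4. Of the 165, 82 were called in every one of the 20 fits that left out 1 of the 20 libraries, and 87 were also called without 5 libraries that stood apart (duodenum control 3, duodenum control 5, duodenum fructose 3, liver control 2 and liver dextrose 5), where 158 genes passed, 49 higher and 109 lower. Liver control 5 and liver fructose 5, with raised acinar markers, stayed in that fit, and liver dextrose 5, which it leaves out, is in neither arm of the comparison. Leaving out liver control 5 alone gave 141 genes, and liver fructose 5 alone 126. The count for liver alone was 50, 51 and 52 without liver fructose 1, 2 and 3, 80 without liver control 3 and 291 without liver control 4.

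The RNA of a fructose transporter changed differently in the tissues. Slc2a5 (ENSMUSG00000028976), the brush border fructose transporter, stood at 6.86, 9.37, 8.81, 5.66 and 14.8 TMM-scaled CPM in fructose livers and at 9.66, 1.16, 13.7, 8.95 and 11.7 CPM in control livers. In duodenum it stood at 2070, 2550, 2400, 2540 and 2080 CPM on fructose, against 240, 376, 302, 209 and 311 CPM on control. The liver groups overlapped, while every fructose duodenum lay above every control duodenum. The log2 fold change was 0.02 ± 0.45 in liver and 3.02 ± 0.45 in duodenum, a difference of -2.99 ± 0.63 (SE, n = 5 per group, edgeR adjusted p = 0.0137). Slc2a2, the facilitated hexose carrier of the hepatocyte membrane and of the basolateral side of enterocytes, had a difference of -0.04 (95% interval -0.86 to 0.78). For Slc5a1, the sodium-coupled glucose transporter, it was 0.12 (-0.54 to 0.78). Sis, which encodes sucrase-isomaltase, was at most 0.985 CPM in any liver, and its difference of -1.43 had an interval of -2.78 to -0.08 and an adjusted p of 0.345.

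The RNAs of the enzymes that follow entry did not all part in the same way. Tkfc (ENSMUSG00000034371), triokinase, had 840, 828, 670, 613 and 585 CPM in fructose livers, against 471, 274, 775, 578 and 333 CPM in control livers. Its levels in duodenum were 2880, 3510, 3260, 2960 and 2490 CPM on fructose, against 915, 761, 718, 577 and 760 CPM on control. The groups overlapped in liver and were fully apart in duodenum, and the difference was -1.48 ± 0.3 (adjusted p = 0.0104). Khk, ketohexokinase, had 1130 to 1360 CPM in fructose livers against 177 to 992 CPM in control livers, and 2050 to 2530 CPM in fructose duodena against 957 to 1210 CPM in control duodena. All fructose libraries of Khk lay above the controls in each tissue, and the difference of -0.32 (-1.12 to 0.49) did not pass. The effects were 0.81 ± 0.28 in liver (adjusted p = 0.164) and 1.13 ± 0.28 in duodenum (adjusted p = 0.0181). Liver control 2 held the lowest value of 177 CPM. Without the 5 libraries that stood apart, that library included, the difference of Khk was -0.56 ± 0.18 and did not pass either (adjusted p = 0.159). Of the 12 members of the fructose uptake and breakdown list, all tested, 3 had a negative difference past the threshold, Slc2a5 and Tkfc among them, and 0 a positive one. Over all tested genes the shares were 0.668% negative and 0.413% positive. The list's median difference was -0.32. In liver 2 members rose, where 92 of all 15268 tested genes did, and in duodenum 5 rose, where 314 did. The glucose phosphate isomerase gene Gpi1, picked out after its values were seen, rose in both (1.21 ± 0.15 in liver and 1.54 ± 0.15 in duodenum).

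**Figure D2:**
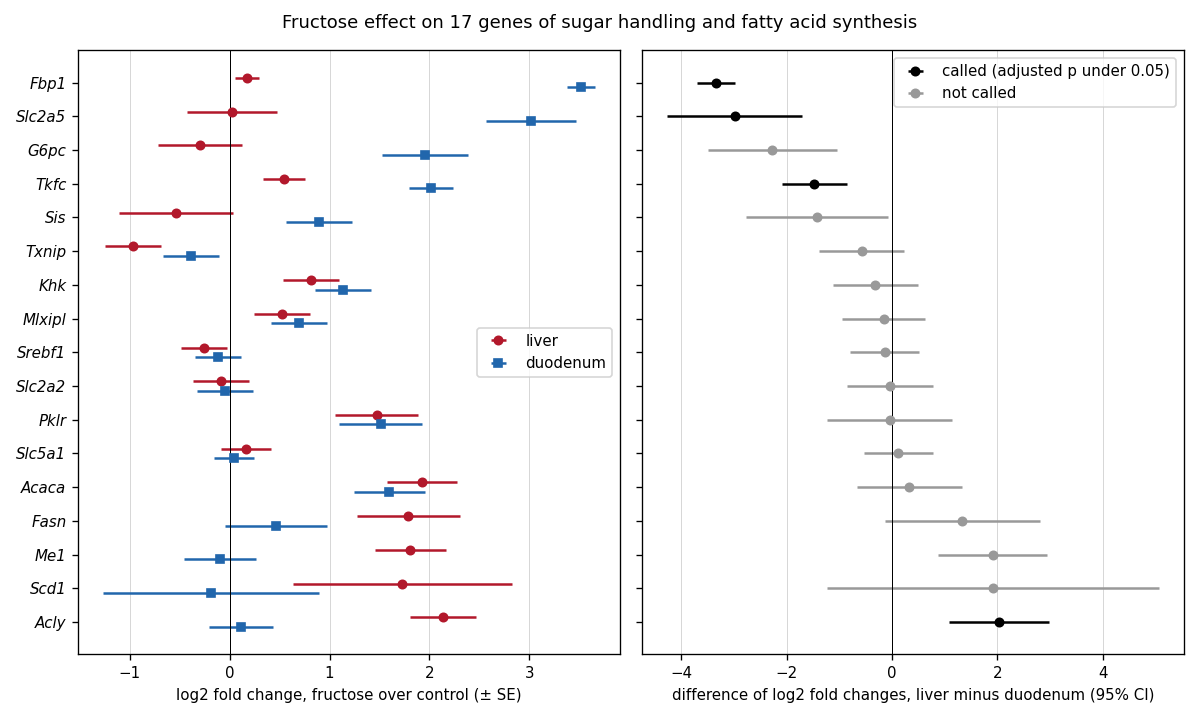
Left: log2 fold change of fructose over control with its SE for 17 genes of sugar handling and fatty acid synthesis, liver as red circles and duodenum as blue squares. Right: the difference, liver minus duodenum, with its 95% interval, black where called and grey where not; Fbp1, Slc2a5 and Tkfc lie below 0 and Acly above it, and genes such as Pklr, Slc2a2 and Acaca have intervals that include 0.

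The smallest p-value for a tissue difference among all tested genes belonged to a gene of gluconeogenesis. Fbp1 (ENSMUSG00000069805) encodes fructose-bisphosphatase, which removes a phosphate on the path back to glucose. It had 1480, 1380, 1360, 1330 and 1340 CPM in fructose livers, against 1150, 1020, 1460, 1240 and 1240 CPM in control livers. In duodenum it had 858, 1120, 983, 1090 and 943 CPM on fructose, against 91, 108, 78.1, 79.6 and 79.7 CPM on control. The control duodenum thus held far less Fbp1 RNA than liver, and on fructose the duodenum came near the level of liver. The difference was -3.34 ± 0.18 (adjusted p = 3.3e-13), from 0.17 ± 0.12 in liver and 3.52 ± 0.14 in duodenum, and it stayed between -3.43 and -3.27 under all 36 alternatives. Pck1 (ENSMUSG00000027513), the carboxykinase that commits oxaloacetate to glucose, went the other way. It had 1990, 2150, 2470, 3570 and 4080 CPM in fructose livers and 3760, 2960, 3360, 3050 and 3540 CPM in control livers, which overlap. In duodenum it stood at 11.6, 24.1, 18.1, 61.6 and 44.3 CPM on fructose, against 279, 689, 118, 207 and 131 CPM on control, with no overlap. Its difference was 2.93 ± 0.72 (adjusted p = 0.0422), and the call was lost when any 1 of 14 libraries was left out, at most with an adjusted p of 0.0935 without duodenum control 2. Without the 5 libraries that stood apart the adjusted p was 0.0561. G6pc, glucose-6-phosphatase, the last step of glucose release, had 512 to 871 CPM in fructose livers against 230 to 1360 CPM in control livers, and 381 to 541 CPM in fructose duodena against 43.2 to 243 CPM in control duodena. Its difference of -2.27 ± 0.6 had an adjusted p of 0.058. Of 13 tested members of the gluconeogenesis list 1 had a positive and 2 a negative difference, the third being Got2, the mitochondrial aspartate aminotransferase (-0.61 ± 0.16, adjusted p = 0.0477), picked out after its values were seen and called in 5 of the 20 fits that left out 1 library. The list's median was -0.08, and 1.08% of all tested genes were called.

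**Figure D3:**
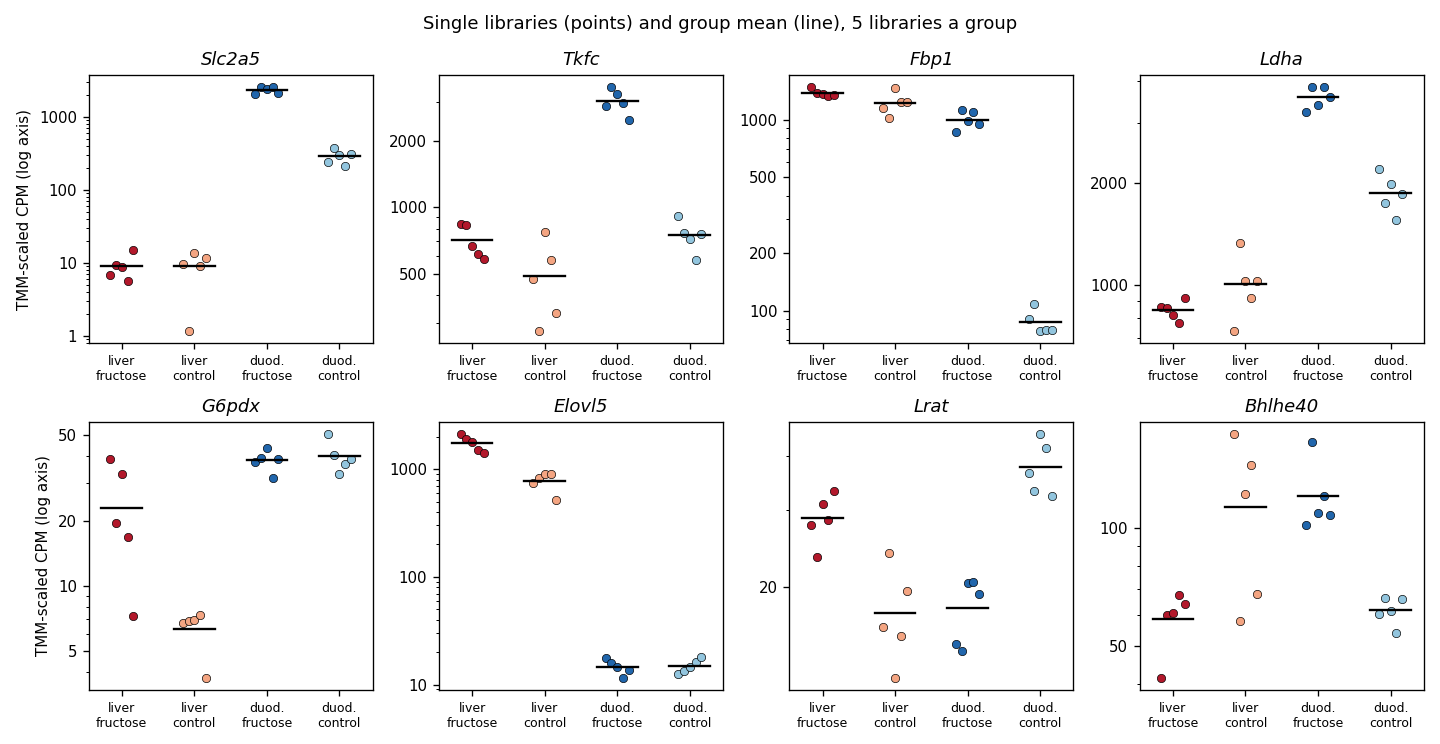
TMM-scaled CPM of 8 genes in each of the 20 libraries, on a log axis with its own range for each gene; points are libraries, horizontal lines the means of 5. Slc2a5, Tkfc, Fbp1 and Ldha have groups fully apart in duodenum only, Elovl5 in liver only (G6pdx in liver overlaps in 1 library), and Lrat and Bhlhe40 move in opposite directions in liver and duodenum.

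Glycolysis genes differed towards duodenum. Of 23 members, all tested, 5 had a negative difference past the threshold and 0 a positive one, and the list's median difference was -0.63. A negative difference was called for 0.668% of all tested genes and a positive one for 0.413%. The count was 2 with the 20 libraries of the 4 groups alone and 9 with DESeq2, all negative. Ldha (ENSMUSG00000063229), the lactate dehydrogenase subunit that predominates in glycolytic tissue, had 773 to 919 CPM in fructose livers against 732 to 1330 CPM in control livers. Its duodenum values were 3240, 3820, 3400, 3830 and 3580 CPM on fructose, against 2190, 1750, 1990, 1560 and 1850 CPM on control. The duodenum groups were fully apart and the liver groups were not, and the difference was -1.19 ± 0.19 (adjusted p = 0.00129). Eno3, an enolase best known from muscle, had a difference of -1.45 ± 0.30 at low levels, with means of 5.24 and 7.26 CPM in fructose and control livers and 6.03 and 3.04 CPM in fructose and control duodena. The called members also included the phosphoglycerate kinase gene Pgk1 (-0.63 ± 0.14) and Pfkl, the liver-type phosphofructokinase (-0.80 ± 0.20), the last of these with an adjusted p of 0.0476 and a call in 6 of the 20 fits that left out 1 library. Pgk1 and Pfkl were picked out after their values were seen. In liver 2 members of the list rose and 0 fell, and in duodenum 10 rose and 0 fell. Among all 15268 tested genes 92 rose in liver and 314 in duodenum. Pklr, the pyruvate kinase of liver and gut, had nearly equal estimates of 1.47 ± 0.42 in liver (adjusted p = 0.0885) and 1.51 ± 0.42 in duodenum (adjusted p = 0.0379). Its difference of -0.04 had an interval of -1.23 to 1.14, wide enough to hold a difference of 2-fold either way. Slc16a3, a monocarboxylate carrier that exports lactate, was below 2 CPM in every liver and rose in duodenum (199 to 247 CPM on fructose against 78.5 to 126 CPM on control). Its difference was -1.96 ± 0.42 (adjusted p = 0.0155), and without liver control 2 the adjusted p was 0.0663. Gpd1, the cytosolic glycerol phosphate dehydrogenase, had 1100 to 1340 CPM in fructose duodena against 493 to 700 CPM in control duodena, overlapping groups in liver, and a difference of -1.20 ± 0.25 (adjusted p = 0.0143).

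Fatty acid synthesis had the opposite pattern, with liver ahead. Of 25 members, all tested, 3 had a positive difference past the threshold and 0 a negative one. Shares over all tested genes were 0.413% positive and 0.668% negative, and 92 of 15268 rose in liver. The median difference was 0.55, with a median effect of 1.13 in liver, where 8 rose, and of 0.11 in duodenum, where 1 rose. Acly (ENSMUSG00000020917), ATP citrate lyase, which makes cytosolic acetyl-CoA, had 2220, 2050, 1370, 651 and 448 CPM in fructose livers, against 361, 134, 349, 400 and 288 CPM in control livers. In duodenum it had 26.5 to 54.6 CPM on fructose, against 28.5 to 48.7 CPM on control. All fructose livers exceeded all control livers, though the lowest only narrowly, and the duodenum groups overlapped. The difference was 2.03 ± 0.46 (adjusted p = 0.0238). Elovl5 (ENSMUSG00000032349), an elongase of polyunsaturated fatty acids, had 2130, 1920, 1800, 1510 and 1420 CPM in fructose livers, against 750, 827, 906, 898 and 513 CPM in control livers. Its duodenum values, 11.5 to 17.6 CPM on fructose, against 12.4 to 18 CPM on control, overlapped, and the difference was 1.20 ± 0.26 (adjusted p = 0.0155). Gpam, the first acyltransferase of triglyceride synthesis, was the third (1.93 ± 0.44, adjusted p = 0.0238), picked out after its values were seen. Malic enzyme Me1 had 400 to 1030 CPM in fructose livers against 123 to 278 CPM in control livers, overlapping groups in duodenum, and a difference of 1.91 ± 0.51 that just missed the threshold (adjusted p = 0.0584). Acetyl-CoA carboxylase Acaca rose in both tissues, by 1.93 ± 0.35 in liver and 1.6 ± 0.36 in duodenum, and its difference of 0.33 had an interval of -0.67 to 1.32. The differences of Fasn (1.33, -0.14 to 2.80) and Scd1 (1.92, -1.23 to 5.07) did not pass, and Scd1 ran from 5.06 to 174 CPM in fructose duodena and from 0.507 to 209 CPM in control duodena. Without the 5 libraries that stood apart 0 members of the list passed and its median difference was -0.05, with adjusted p of 0.116 for Acly and 0.101 for Elovl5, and Acly also missed the threshold without liver fructose 1, liver fructose 2 or duodenum control 3.

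G6pdx (ENSMUSG00000031400), glucose-6-phosphate dehydrogenase, the entry to the pentose phosphate pathway and a source of NADPH, rose in liver. It had 38.9, 19.5, 32.9, 16.8 and 7.24 CPM in fructose livers, against 6.71, 6.9, 6.96, 7.36 and 3.74 CPM in control livers. The duodenum held 31.6 to 43.7 CPM on fructose, against 33.1 to 50.8 CPM on control. Only liver fructose 5 came down to the control range in liver, and the duodenum groups overlapped throughout. The effects were 1.86 ± 0.28 in liver and -0.07 ± 0.26 in duodenum, a difference of 1.93 ± 0.38 (adjusted p = 0.00705), and with voom sample weights the adjusted p was 0.0683. Of 16 tested members of the pentose phosphate and polyol list, G6pdx was the 1 with a positive difference, and 0 were negative. Gclc, which catalyses the first step of glutathione synthesis, had overlapping liver groups, at 371 to 472 CPM on fructose, against 229 to 423 CPM on control. It fell in duodenum, with 21.4 to 26.6 CPM on fructose against 34.4 to 59.9 CPM on control, and the difference was 1.34 ± 0.27 (adjusted p = 0.00997). G6pdx and Gclc were the 2 called members, both positive, of 16 tested targets of NRF2, the regulator of antioxidant genes, whose median difference was 0.14. A positive difference was called for 0.413% of all tested genes.

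Opposite changes that passed in both tissues were found for 2 genes, with means of at least 1 CPM in both. Lrat (ENSMUSG00000028003) encodes the acyltransferase that esterifies retinol for storage, in stellate cells of the liver and in enterocytes. It had 27.8, 23.5, 31.1, 28.5 and 33.2 CPM in fructose livers, against 16.2, 24, 12.4, 15.5 and 19.6 CPM in control livers. In duodenum it had 14.8, 14.3, 20.5, 20.6 and 19.3 CPM on fructose, against 36.5, 33.2, 44.9, 41.6 and 32.3 CPM on control. The liver groups touched in 1 library and the duodenum groups were apart. Lrat rose by 0.71 ± 0.17 in liver (adjusted p = 0.0416) and fell by 1.08 in duodenum (log2 -1.08 ± 0.17, adjusted p = 0.000195), a difference of 1.79 ± 0.24 (adjusted p = 0.000112). Bhlhe40 (ENSMUSG00000030103), a repressor in the circadian feedback loop, was the reverse case. It had 41.4, 60, 60.8, 67.5 and 63.8 CPM in fructose livers, against 174, 58, 122, 145 and 68 CPM in control livers, and 102, 166, 109, 121 and 108 CPM in fructose duodena, against 60.4, 66.1, 61.5, 54 and 66 CPM in control duodena. The liver groups overlapped through liver control 2, at 58 CPM, and liver control 5 lay just above the fructose livers, while the duodenum groups were apart. The effects were -0.95 ± 0.22 in liver and 0.98 ± 0.22 in duodenum, a difference of -1.93 ± 0.31 (adjusted p = 0.00129). Both differences passed under each of the 36 alternatives, the stricter threshold of 0.01 included. Cth, the gamma-lyase of the transsulfuration pathway, had no overlap in either tissue, with 196 to 297 CPM in fructose livers against 298 to 480 CPM in control livers, and 84.4 to 99.7 CPM in fructose duodena against 52.8 to 62.5 CPM in control duodena. Its difference was -1.35 ± 0.26 (adjusted p = 0.00517), while its liver effect of -0.71 ± 0.18 had an adjusted p of 0.0529. Bhlhe40 and the repressor Cry2, with a difference of 1.4 ± 0.33 (adjusted p = 0.0293), were the 2 called members of 19 tested clock genes, where 1.08% of all tested genes were called. Cry2 missed the threshold when any 1 of 8 libraries was left out (at most adjusted p = 0.0676, without duodenum fructose 2).

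The 250 bases before the annotated start are shown for 5 of these genes to set the letters beside the tissue patterns. Among them are Fbp1, which rose in duodenum, Lrat, which went opposite ways, and G6pdx, which rose in liver. The others are Ldha and Elovl5, called genes of glycolysis and fatty acid synthesis whose windows hold the E-box CACGTG. The windows of the called genes Pgk1, Pfkl and Gpam were not looked at singly. Sequences are from RefSeq for GRCm38.p6, read 5′ to 3′ on the gene's strand, with capitals marking CACGTG and all other bases in lower case. The windows are chr13:62888283-62888532 on the minus strand for Fbp1, chr3:82903975-82904224 on the minus strand for Lrat, chrX:74428881-74429130 on the minus strand for G6pdx, chr7:46845554-46845803 on the plus strand for Ldha and chr9:77917115-77917364 on the plus strand for Elovl5.
Fbp1: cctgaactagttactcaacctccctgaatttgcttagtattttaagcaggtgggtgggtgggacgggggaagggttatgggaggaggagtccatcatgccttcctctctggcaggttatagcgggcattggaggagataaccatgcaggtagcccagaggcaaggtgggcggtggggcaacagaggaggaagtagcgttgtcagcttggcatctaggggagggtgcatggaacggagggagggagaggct
Lrat: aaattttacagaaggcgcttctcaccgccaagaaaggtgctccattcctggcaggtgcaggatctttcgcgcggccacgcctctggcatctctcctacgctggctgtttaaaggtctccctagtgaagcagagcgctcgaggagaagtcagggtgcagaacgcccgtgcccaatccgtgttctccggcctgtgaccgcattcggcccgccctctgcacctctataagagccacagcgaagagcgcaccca
G6pdx: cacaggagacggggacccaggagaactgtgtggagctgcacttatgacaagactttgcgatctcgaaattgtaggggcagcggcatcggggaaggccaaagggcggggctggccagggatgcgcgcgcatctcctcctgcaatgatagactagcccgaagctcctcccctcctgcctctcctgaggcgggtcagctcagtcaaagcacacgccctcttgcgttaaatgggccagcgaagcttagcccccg
Ldha: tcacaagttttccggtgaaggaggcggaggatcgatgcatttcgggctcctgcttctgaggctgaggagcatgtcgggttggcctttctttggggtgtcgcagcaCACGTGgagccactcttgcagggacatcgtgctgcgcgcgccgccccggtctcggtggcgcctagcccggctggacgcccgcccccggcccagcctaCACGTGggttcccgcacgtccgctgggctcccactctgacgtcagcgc
Elovl5: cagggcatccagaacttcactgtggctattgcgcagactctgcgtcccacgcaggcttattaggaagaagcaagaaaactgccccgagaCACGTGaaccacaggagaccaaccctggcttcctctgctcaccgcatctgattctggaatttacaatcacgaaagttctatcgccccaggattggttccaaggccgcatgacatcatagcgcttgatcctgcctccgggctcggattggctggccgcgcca
The Ldha window holds the motif 2 times, starting 145 and 48 bases before the start, and a second annotated start of Ldha has none in its 250 bases. The Elovl5 window holds it 1 time, 161 bases before the start, and those of Fbp1, Lrat and G6pdx hold none. The motif also lay in the 250 bases before an annotated start of Khk, Slc5a1, Mlxipl, Fgf21 and Rab21, none of them called for the difference. CACGTG reads the same on both strands, so no second search was needed. In windows of 250 bases before and 50 after the start, 1 a gene, it was present for 7.24% of 27025 genes, for 9.73% of the 11078 tested genes with an entry and for 11 of 131 called genes (8.4%), a share for the called genes below that of tested genes as a whole, read here with no test.

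About as many interferon response genes passed in duodenum as did not, all of them upward. Of 28 members, all tested, 0 changed in liver, and in duodenum 15 rose and 0 fell, where 314 of all 15268 tested genes rose. The difference was negative for 2, Bst2 and Ifit1, against 0.668% of all tested genes, and the median difference was -0.47. The count of 2 depended on the method: 5 passed with voom and among genes at 1 CPM or more in both tissues. It was 7 with DESeq2 and 10 with spread estimated in each tissue, and all were negative. The fit with spread estimated in each tissue also took the p of the difference from a normal distribution, a less strict reference than the F test. Bst2 (ENSMUSG00000046718), tetherin, which holds virus particles at the cell surface, had 216 to 245 CPM in fructose livers, against 171 to 242 CPM in control livers. Values in duodenum were 24.3, 27, 20.5, 27.9 and 26.8 CPM on fructose, against 11.1, 13.2, 10.3, 13.6 and 11.3 CPM on control. The liver groups overlapped and the duodenum groups were apart, and the difference was -0.97 ± 0.19 (adjusted p = 0.00722). Ifit1, which binds foreign RNA, had 72.4 to 144 CPM in fructose duodena against 39.2 to 60.7 CPM in control duodena, with a difference of -1.24 ± 0.28 (adjusted p = 0.0240) that missed the threshold when any 1 of 5 libraries was left out (at most 0.0577, without liver fructose 2) and without the 5 that stood apart (0.103). Ifi44 and Usp18 lay just outside, each with an adjusted p of 0.0504. Of 19 T and NK cell markers 0 were called in either tissue, and their mean was 2.15 to 2.93 log2(CPM + 1) in fructose duodena and 2.39 to 3.54 in control duodena; the part of immune cells in the result was not tested.

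Some immediate early genes, which respond within minutes to stimulation, fell in liver. Of 18 tested members 3 had a negative difference and 0 a positive one, 4 fell in liver, and 0 passed in duodenum. Among all 15268 tested genes 0.668% had a negative difference, and 56 fell in liver. The median difference was -1.08, from a median of -0.91 in liver and 0.15 in duodenum. Ier2 (ENSMUSG00000053560) had 35.6, 35.7, 26.6, 36.7 and 25 CPM in fructose livers, against 59.1, 83.1, 60.3, 50.2 and 79.7 CPM in control livers. Duodenum had 40.2 to 56 CPM on fructose, against 38.6 to 56.6 CPM on control. The liver groups were apart and the duodenum groups overlapped, with a difference of -1.14 ± 0.22 (adjusted p = 0.00705). Egr1, a zinc finger transcription factor, had 16.4 to 45.3 CPM in fructose livers against 77.1 to 270 CPM in control livers, and a difference of -2.29 ± 0.49 (adjusted p = 0.0162). The third, Klf4 (-1.39 ± 0.34, adjusted p = 0.0373), picked out after its values were seen, had a mean of 1.53 CPM in fructose livers and 3.79 CPM in control livers, and was called in 7 of the 20 fits that left out 1 library. The highest value of Egr1 was that of liver control 2, the library with raised cell cycle genes; without the 5 libraries that stood apart 1 member of the list passed and its median difference was -0.69, with an adjusted p of 0.0205 for Ier2 and 0.114 for Egr1. Id1, a target of BMP signalling that takes part in iron sensing in liver, also fell in liver, with 4.08 to 8.06 CPM in fructose livers against 12.7 to 25.5 CPM in control livers and a difference of -1.74 ± 0.33 (adjusted p = 0.00493).

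**Figure D4:**
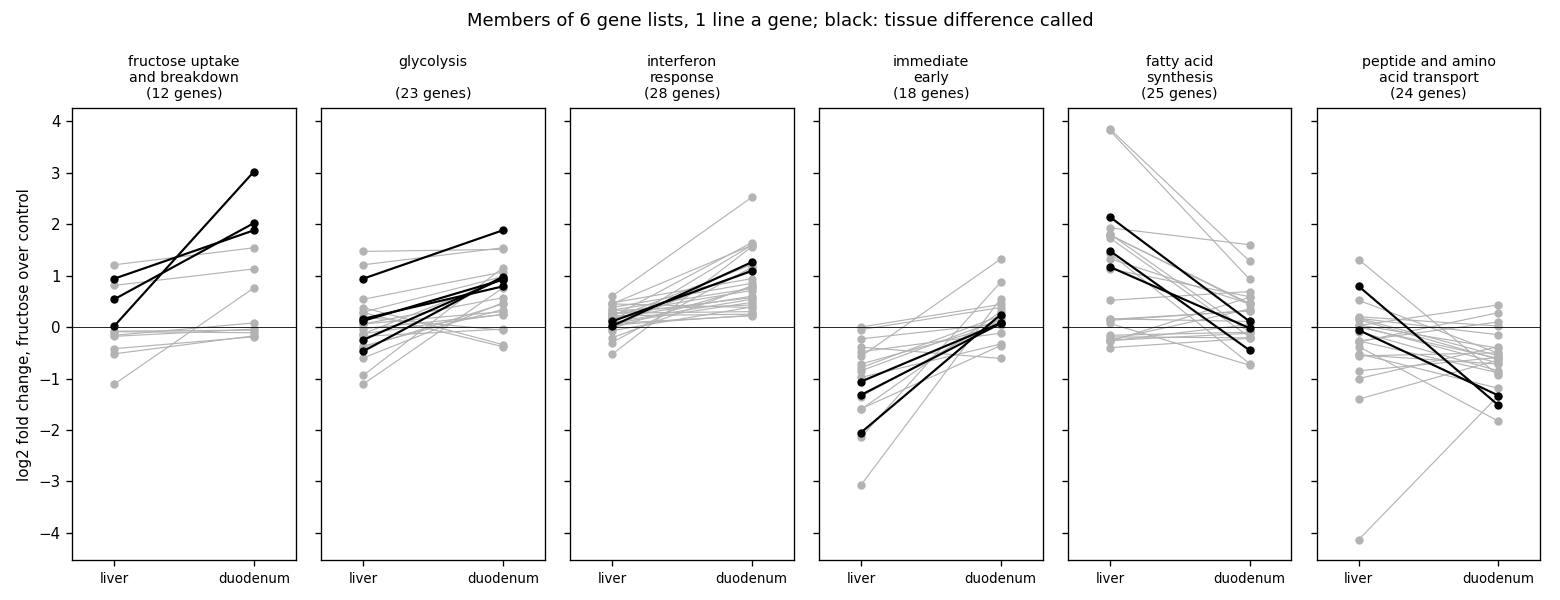
Log2 fold change of fructose over control in liver (left end of each line) and duodenum (right end) for the tested members of 6 gene lists, 1 line a gene, black where the tissue difference was called. Lines mostly climb towards duodenum for fructose breakdown, glycolysis, interferon response and immediate early genes, and mostly descend for fatty acid synthesis; in peptide and amino acid transport both called genes descend.

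The RNA of an iron exporter had a negative difference, as did Slc2a5 and Tkfc. Slc40a1 (ENSMUSG00000025993), ferroportin, the only known cellular iron exporter, had 86.8 to 147 CPM in fructose livers, against 104 to 151 CPM in control livers, which overlap. In duodenum it had 95.3, 52.7, 136, 61.5 and 57.2 CPM on fructose, against 26.8, 17.4, 29.7, 21.8 and 51.5 CPM on control. The duodenum groups nearly touched, since duodenum control 5 was at 51.5 CPM, and the difference was -1.71 ± 0.36 (adjusted p = 0.0126). Of 19 tested members of the iron handling list, 3 had a negative difference, against 0.668% of all tested genes, and 0 a positive one, with a median of -0.20. They were Slc40a1, Id1 and the hypoxia factor gene Hif1a (-0.79 ± 0.18), which was picked out after its values were seen. Hif1a was called in 17 of the 20 fits that left out 1 library, and not without the 5 libraries that stood apart.

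Several genes of absorption fell in duodenum while liver did not pass. The mean of 16 enterocyte markers, a list that includes Anpep, was 10.08 to 10.53 log2(CPM + 1) in fructose duodena, with a median of 10.28. In control duodena it was 10.48 to 10.71, with a median of 10.68. In duodenum 3 of the 16 markers fell, Anpep among them, and 0 rose past the threshold, with a median effect of -0.09. The marker Sis had an effect of 0.89 ± 0.33 there without passing. The part of enterocyte content in these results was not tested. Enpep (ENSMUSG00000028024), a brush border aminopeptidase, had 153, 110, 88.1, 105 and 88.5 CPM in fructose livers, against 63, 41.6, 67.4, 93 and 50.2 CPM in control livers. Duodenum libraries had 218, 259, 208, 337 and 403 CPM on fructose, against 649, 1430, 704, 518 and 777 CPM on control. The liver groups met in 1 control library, the duodenum groups were apart, and the difference was 2.31 ± 0.35 (adjusted p = 0.000532). Anpep, another brush border aminopeptidase, had 959 to 2150 CPM in fructose duodena against 2520 to 4290 CPM in control duodena, with a difference of 1.27 ± 0.32 (adjusted p = 0.0462) that missed the threshold when any 1 of 15 libraries was left out (at most 0.0871, without liver fructose 1). Without the 5 libraries that stood apart its adjusted p was 0.17. Enpep and Anpep were the 2 called members of 24 tested genes of peptide and amino acid transport, both positive, with a median difference of 0.53. In duodenum 6 members fell. Among all 15268 tested genes 0.413% had a positive difference, and 221 fell in duodenum. Scarb1 (ENSMUSG00000037936), the receptor for high-density lipoprotein, had 179 to 276 CPM in fructose livers, against 211 to 299 CPM in control livers. In duodenum it had 6.85, 2.58, 10.2, 8.45 and 5.14 CPM on fructose, against 58.9, 35.2, 60.7, 49.1 and 67.9 CPM on control. The liver groups overlapped and the duodenum groups were far apart. The difference was 2.85 ± 0.51 (adjusted p = 0.00348), and Scarb1 was the 1 called member of 21 tested genes of lipid absorption and lipoprotein assembly, whose median was 0.07. Glud1, glutamate dehydrogenase, had 120 to 147 CPM in fructose duodena against 227 to 368 CPM in control duodena and a difference of 0.99 ± 0.20 (adjusted p = 0.0104; 0.0567 without the 5 libraries that stood apart). Asl, argininosuccinate lyase of the urea cycle, fell instead in liver, with 346 to 434 CPM on fructose against 442 to 862 CPM on control and a difference of -0.80 ± 0.19 (adjusted p = 0.0372; missed when any 1 of 13 libraries was left out, at most 0.0789 without duodenum fructose 2). Baat, the bile acid conjugating enzyme, was below 3 CPM in every duodenum, with a difference of 1.14 ± 0.29 (adjusted p = 0.0470) that missed the threshold when any 1 of 13 libraries was left out and was 0.84 without duodenum control 2 (adjusted p = 0.104).

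Genes of xenobiotic metabolism moved in both directions. Ephx1 (ENSMUSG00000038776), microsomal epoxide hydrolase, had 165 to 254 CPM in fructose livers, against 215 to 576 CPM in control livers. Its levels in duodenum were 169, 142, 170, 181 and 161 CPM on fructose, against 98.1, 48, 28.9, 17.7 and 28.6 CPM on control. The liver groups overlapped, the duodenum groups were apart, and the difference was -2.59 ± 0.51 (adjusted p = 0.00722). Ces1d, a carboxylesterase, had a difference of -1.59 ± 0.33, and Gsta3, a glutathione transferase, one of 2.18 ± 0.49 (adjusted p = 0.0107 and 0.0212). Gsta3 was scarce in duodenum, at 3.31 to 6.19 CPM on fructose against 9.27 to 54.1 CPM on control, the highest in duodenum control 1. Livers had 1490 to 1690 CPM on fructose against 903 to 1980 CPM on control. With 1 library left out its difference was as low as 1.48, and the call was kept each time. Ephx1, Ces1d and Gsta3 were the 3 called of 34 tested members, 1 positive and 2 negative, with a median of 0.05. Of all tested genes 1.08% were called. Cyp3a44, a cytochrome P450 of the duodenum here, had at most 0.463 CPM in any liver, and 48.2 to 90.2 CPM in fructose duodena against 4.3 to 9.83 CPM in control duodena. Its difference of -4.54 ± 1.00 (adjusted p = 0.0187) rests on those few liver reads, and was -3.49 without liver control 2 (adjusted p = 0.228). Ces1d, Gsta3 and Cyp3a44 have near-identical paralogs, so their counts are uncertain.

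Outside these pathways, several more genes had a negative difference, of which Itpr1, Marc1 and Mmp23 rose in duodenum. Itpr1 (ENSMUSG00000030102), a calcium release channel of the endoplasmic reticulum, had 46 to 59.7 CPM in fructose livers, against 29.1 to 50.4 CPM in control livers, which overlap. In duodenum it had 310, 388, 348, 383 and 353 CPM on fructose, against 48.1, 23.6, 45.7, 47.9 and 22.8 CPM on control, which do not. The difference was -2.92 ± 0.34 (adjusted p = 5.82e-06). Marc1 (ENSMUSG00000026621), a mitochondrial amidoxime reductase with a close paralog, had 521 to 588 CPM in fructose livers against 413 to 839 CPM in control livers, 7.13 to 11 CPM in fructose duodena against 1.62 to 2.87 CPM in control duodena, and a difference of -2.29 ± 0.26 (adjusted p = 3.52e-06). Marc1 is thus called on a change in the organ where it is scarce. Mmp23, a metalloproteinase, had a difference of -2.62 ± 0.49 (adjusted p = 0.00494), with 17.7 to 26.4 CPM in fructose duodena against 3.33 to 6.14 CPM in control duodena. Pmm1, a phosphomannomutase that fell in liver and did not pass in duodenum (adjusted p = 0.0742), had 0.935 to 1.94 CPM in fructose livers against 2.26 to 10 CPM in control livers, and 17.2 to 25.3 CPM in fructose duodena against 9.11 to 14.9 CPM in control duodena, with no overlap in either tissue. Its difference was -2.45 ± 0.42 (adjusted p = 0.00239), and -1.74 without the 5 libraries that stood apart (adjusted p = 0.00908), of which liver control 2 held the value of 10 CPM. Sprr1a, an epithelial envelope protein, had 37.9 CPM in liver control 2 and at most 0.281 CPM in the other fructose and control livers, and 14.4 to 19.1 CPM in fructose duodena against 0.71 to 2.33 CPM in control duodena. Its fitted difference was -9.95 ± 2.11 (adjusted p = 0.0155) without passing in either tissue. Without liver control 2 the difference was -3.76 and the adjusted p 0.487.

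The other genes named were of several kinds, most of them with a positive difference. Reck, an inhibitor of metalloproteinases, and Extl1, a glycosyltransferase of heparan sulfate synthesis, passed for the difference (2.34 ± 0.53 and 2.17 ± 0.50, adjusted p of 0.0223 and 0.0268) without passing in either tissue. Reck missed the threshold when any 1 of 3 libraries was left out (at most 0.0524, without liver fructose 1) and Extl1 when any 1 of 5 was (at most 0.0662, without liver fructose 2). Without the 5 libraries that stood apart the adjusted p was 0.111 for Reck and 0.0693 for Extl1. Atp2b2, a plasma membrane calcium pump, had 22.9, 19.6, 20.4, 20.4 and 10.8 CPM in fructose livers, against 3.2, 4.35, 2.53, 2.16 and 1.23 CPM in control livers, with at most 0.421 CPM in any duodenum. Its liver groups were far apart, and its difference of 2.84 ± 0.70 had an adjusted p of 0.0387. The call was lost when any 1 of 13 libraries was left out (at most 0.102, without duodenum control 5) and without the 5 that stood apart (0.103). Clec4f, a Kupffer cell lectin, had 117 to 177 CPM in fructose livers and 103 to 140 CPM in control livers, against 0 to 0.0971 CPM in fructose duodena and 0.168 to 1.37 CPM in control duodena. Its difference of 3.99 ± 0.70 (adjusted p = 0.00256) therefore rests on a trace amount in duodenum. Fewer cells of a type and less RNA per cell cannot be told apart in bulk tissue, here or for any other gene. Plch2 and Notum were likewise below 1 CPM in the tissue that moved, at 0.401 to 0.921 CPM in fructose livers against 0 to 0.281 CPM in control livers for Plch2 and 0.0527 to 0.276 CPM in fructose duodena against 0.304 to 0.68 CPM in control duodena for Notum. Each missed the threshold when any 1 of 15 libraries was left out (at most 0.102 without liver fructose 2 for Plch2 and 0.111 without duodenum fructose 2 for Notum). Without the 5 libraries that stood apart the adjusted p was 0.081 for Plch2 and 0.108 for Notum. Pga5, a pepsinogen with near-identical paralogs, was at most 0.136 CPM in liver and had 1.44 to 2.45 CPM in fructose duodena, against 0.0559 to 0.218 CPM in control duodena; its difference of -4.58 ± 1.07 (adjusted p = 0.0342) lost its call when any 1 of 11 libraries was left out. Alb, albumin, was called with 6.51 ± 1.65 (adjusted p = 0.0476), and the value rested on duodenum control 5, at 115 CPM where the other duodena had at most 0.49 CPM. Without that library the difference was -0.09 (adjusted p = 0.994). Cfap61 and Mgat4c were at 0 in all fructose livers, so no fold is given, and both had a negative difference. Cfap61 had 1.55 to 3.46 CPM in fructose duodena against 0 to 0.338 CPM in control duodena (adjusted p = 0.00514, and 0.109 without liver control 3), and Mgat4c 2.92 to 6.27 CPM against 0.492 to 1.36 CPM (adjusted p = 0.0476, and at most 0.208, without liver control 3).

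Some genes passed in both tissues. Of the 12 genes that passed in both tissues with the same sign, 11 did not pass for the difference. The 4 with the most closely matched effects were Rab21, a small GTPase of endosomes, Spcs2, a subunit of the signal peptidase, Usp30, a mitochondrial deubiquitinase, and Il17rc, a subunit of the interleukin-17 receptor. Rab21 rose by 0.35 ± 0.08 in liver and 0.29 ± 0.08 in duodenum, with 41.3 to 50.7 CPM in fructose livers against 33.1 to 39.7 CPM in control livers and 65.7 to 79.5 CPM in fructose duodena against 53.8 to 60.8 CPM in control duodena. No fructose library of Rab21 overlapped a control library, and the difference of 0.06 had an interval of -0.16 to 0.29. Spcs2 rose by 0.45 ± 0.11 in liver and 0.38 ± 0.11 in duodenum, a difference of 0.07 (-0.24 to 0.38). Usp30 had effects of -0.36 ± 0.09 in liver and -0.43 ± 0.09 in duodenum, with a difference of 0.06 (-0.19 to 0.32), and Il17rc effects of -0.44 ± 0.11 and -0.49 ± 0.11, with a difference of 0.05 (-0.26 to 0.36).

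The sugar-responsive regulators themselves did not pass for the difference. Mlxipl, which encodes ChREBP, had 428 to 544 CPM in fructose livers against 138 to 483 CPM in control livers, and 303 to 416 CPM in fructose duodena against 154 to 361 CPM in control duodena, with a difference of -0.16 (-0.96 to 0.63). Srebf1, a regulator of lipogenesis, had one of -0.14 (-0.80 to 0.52) and Txnip, a ChREBP target that restrains glucose uptake, one of -0.58 (-1.38 to 0.22). Of 21 tested ChREBP targets 5 rose in liver and 6 in duodenum, with 0 falling in either. Over all 15268 tested genes, 92 rose and 56 fell in liver, and 314 rose and 221 fell in duodenum. The difference was positive for Acly and negative for Gpd1 and Tkfc, where 1.08% of all tested genes were called, and the list's median was -0.04. Fgf21, a liver hormone induced by sugar, had 5.98 to 10.6 CPM in fructose livers against 3.06 to 41.2 CPM in control livers and had no read in any of the 10 duodena, so no difference could be estimated. The lists with 0 called members for the difference were hexose transport, lipid droplet, cholesterol synthesis and uptake, fatty acid oxidation and PPARA targets, brush border sugar digestion, endoplasmic reticulum stress, glycogen, purine breakdown and urate, hepatokine and insulin pathway, and collagen and extracellular matrix. Their median differences ran from -0.63 for collagen and extracellular matrix to 0.27 for the hepatokine and insulin pathway, and a p that misses the threshold does not show that the tissues acted alike.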

How the data were processed

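RNA-seq of mouse liver and duodenum was analysed in 30 libraries, 5 for each of 6 combinations of tissue and diet. The authors' deposited table holds whole-number read counts per gene and FPKM (reads scaled by gene length and library total) for each library. TopHat2 2.0.12, Bowtie2 2.2.3, HTSeq 0.6.1 and DESeq 1.18.0 are named per the submitters' processing notes; genome build, annotation and strand setting are not given in the sources used here. Overlapping and antisense genes are therefore uncertain. For 100% of values above 0, the deposited count, library total and FPKM implied the same gene length as in the gene's other libraries, within a relative 0.001. Counts were fitted in R 4.3.3 with edgeR 4.0.16 (robust quasi-likelihood F test, TMM scaling, filterByExpr by group) on all 30 libraries, and the liver, duodenum and difference contrasts came from that fit with Benjamini-Hochberg adjustment at 0.05; the pipeline was tested on simulated data. Levels are TMM-scaled CPM, counts scaled by library size, and SEs are the absolute log2 change over the root of F. Alternatives used limma 3.58.1 and DESeq2 1.42.0. Libraries of one group correlated at 0.937 to 0.991 and differed by more than sampling noise. The table itself named 22512 genes, the reference annotation a further 24253, and 304 stayed without a symbol.

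Genes named were the most positive and most negative called differences by expression class, opposite calls, up to 2 called members of each pathway list, a fixed set of genes of sugar handling and lipogenesis, and 4 closely matched shared genes. The gene lists, this rule and the 5 libraries set apart were chosen with earlier results of these data known. Genes withheld from the text are not reported here, though they stayed in all fits and list counts.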

Additional observations from a re-analysis of the deposited data

Results flagged for a closer look

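Single libraries lay far from the other 4 of their group for 30 of 272 sets of values (65 genes and 3 marker lists in 4 groups). For normally spread values chance flags about 1 in 20, a rate that need not hold for CPM. Sets at 0 in every library could not be flagged. In control livers, replicate 2 stood apart for Pmm1 (10 CPM), Mmp23 (3.01 CPM), Sprr1a (37.9 CPM), Fgf21 (41.2 CPM) and the cell cycle list (3.98 log2(CPM + 1)), replicate 3 for Cfap61 (0.984 CPM) and replicate 5 for G6pdx (3.74 CPM). In fructose livers, replicate 1 stood apart for Bhlhe40 (41.4 CPM) and Anpep (123 CPM), replicate 2 for Extl1 (21 CPM), and replicate 5 for Sprr1a (0.281 CPM), Atp2b2 (10.8 CPM) and Usp30 (17.7 CPM). In fructose duodena, replicate 2 stood apart for Asl (27.7 CPM), replicate 3 for the acinar list (2.89), replicate 4 for Me1 (22.1 CPM), and replicate 5 for Anpep (2150 CPM) and Notum (0.276 CPM). In control duodena, replicate 1 stood apart for Gsta3 (54.1 CPM), Extl1 (2.93 CPM) and Khk (1210 CPM), and replicate 2 for Enpep (1430 CPM), Pck1 (689 CPM) and Baat (2.24 CPM). In the same group, replicate 3 stood apart for Scd1 (209 CPM) and the acinar list (3.79), replicate 4 for Gpd1 (493 CPM) and Mlxipl (361 CPM), and replicate 5 for Alb (115 CPM) and the hepatocyte list (3.77).

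The fructose effect differed between liver and duodenum, by edgeR's test of the difference itself, for 47 named genes. Some of these calls were lost when 1 library was left out, as given above. Differences on the log2 scale were negative for Fbp1 (-3.34), Marc1 (-2.29), Itpr1 (-2.92), Bhlhe40 (-1.93), Ldha (-1.19), Pmm1 (-2.45), Id1 (-1.74), Mmp23 (-2.62), Cth (-1.35), Ier2 (-1.14), Bst2 (-0.97), Ephx1 (-2.59), Tkfc (-1.48), Eno3 (-1.45), Ces1d (-1.59), Slc40a1 (-1.71), Slc2a5 (-2.99), Gpd1 (-1.2), Sprr1a (-9.95, and -3.76 without liver control 2), Slc16a3 (-1.96), Egr1 (-2.29), Cyp3a44 (-4.54, and -3.49 without liver control 2), Ifit1 (-1.24), Pga5 (-4.58) and Asl (-0.8). They were positive for Lrat (1.79), Enpep (2.31), Clec4f (3.99), Scarb1 (2.85), G6pdx (1.93), Gclc (1.34), Glud1 (0.99), Elovl5 (1.2), Gsta3 (2.18), Reck (2.34), Acly (2.03), Extl1 (2.17), Cry2 (1.4), Atp2b2 (2.84), Pck1 (2.93), Plch2 (2.52), Anpep (1.27), Baat (1.14), Notum (2.05) and Alb (6.51, and -0.09 without duodenum control 5). Cfap61 and Mgat4c, at 0 in all fructose livers, had adjusted p of 0.00514 and 0.0476.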

How the results depend on the processing

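The main counts were 165 genes for the difference (63 higher, 102 lower), 148 for liver and 535 for duodenum. DESeq2 gave 385 for the difference (163 higher, 222 lower) and 364 for liver. Spread estimated in each tissue gave 438 (203 and 235), 18 for liver and 901 for duodenum. The p of that difference came from a normal distribution, not from the F test. Voom with sample weights gave 308 (133 and 175), 340 and 1453. On log2(FPKM + 1) the difference counted 370 (187 and 183), and on log2(FPKM + 0.1) 232 (119 and 113). Without the low-count filter 32 genes were higher for the difference and 73 passed in liver, and with 20 libraries 94 passed in liver. With an absolute log2 change of at least 1, 40 were higher for the difference, 62 passed in liver and 249 in duodenum. A threshold of 0.01 left 52 (15 and 37), 36 and 273. Without the 5 libraries that stood apart liver counted 244. With 1 library left out the difference counted 102 to 222 (34 to 99 higher, 68 to 132 lower), liver 50 to 291 and duodenum 373 to 655. Replicate numbers were not shown to pair libraries (same-number correlations of -0.07 to 0.2, with 2 of 10 best matched); a replicate block of pairs of the same number and diet gave 115 genes (41 higher), and a block of numbers over all groups 111 (36 higher) and 81 in liver. Signs turned for Slc2a2 (0.075 on both FPKM scales, 0.032 and 0.017 with the pair and number blocks, -0.23 to 0.146 with 1 library left out), Pklr (0.324 and 0.329 on the FPKM scales, 0.2 with the pair block, -0.322 to 0.156 with 1 library left out), Alb (-0.386 without the 5 libraries, -0.088 without duodenum control 5, where leaving out 1 library gave up to 6.834), Scd1 (-0.226) and Acaca (-0.161) without the 5, Il17rc (-0.053 without the 5, -0.005 without liver control 2, up to 0.159), Mlxipl (0.006, from -0.43) and Slc5a1 (-0.031, up to 0.245) without liver control 1, and Srebf1 (0.018, from -0.27) without liver control 5. The cause was not tested.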
